A study of Mus musculus with 2 samples.

Results

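The mitochondrial respiratory chain subunits were examined in bone-marrow-derived dendritic cells that carry or lack miR-155. The set was every probe set that the platform annotation assigned to 1 gene only with a symbol starting in Ndufa, Ndufb, Ndufc, Ndufs, Ndufv, Uqcr, Cox4 to Cox8 or Atp5, or with the symbol Sdha, Sdhb, Sdhc, Sdhd or Cyc1, without the assembly factors named Ndufaf. It held 170 probe sets of 83 genes, of 45101 probe sets and 18193 named genes on the array. The rule reads gene names and not signals, although the set was picked with earlier results of these data in view. The series holds 2 Affymetrix arrays. One is of wild-type cells of C57BL/6J mice and the other of miR155-/- cells of the same strain. Both cultures were grown from marrow with GM-CSF (20 ng/ml), a growth factor that yields dendritic cells, and after 7 days both received LPS (10 ng/ml), a component of bacterial outer membranes that sets off innate immune responses. The sources used here give neither the length of LPS exposure nor the age, number or pooling of the mice, and untreated cells were not analysed here. The labels call the cells dendritic, but the growth protocol names macrophages. The knockout is labelled as a homozygous deletion, with no Cre or transgene named.

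The respiratory chain lies in the inner mitochondrial membrane. Complexes I and II pass electrons from NADH and succinate to coenzyme Q, complex III passes them on to cytochrome c, and complex IV hands them to oxygen. The proton gradient built on the way drives ATP synthase, also called complex V, whose genes are included here. Most subunits are encoded in the nucleus and measured here as messenger RNA. Dendritic cells activated by LPS are known to shift from oxidative phosphorylation towards glycolysis. The microRNA missing from the knockout has the mature sequence below, shown because it is the molecule that sets the arrays apart. It lies at chr16:84714143-84714165 on the plus strand of GRCm38.p6 (RefSeq), and the capitals mark its seed, bases 2 to 8.
mmu-miR-155-5p: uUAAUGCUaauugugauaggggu

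With 1 array per genotype there was no spread between replicates, no test was possible and no p-value is given. Each difference below is the log2 signal of the knockout minus that of wild type after quantile normalization, which gives both arrays the same distribution, so a value of 0 means equal normalized signal on both arrays. The only error that these arrays can show is how far probe sets for 1 gene disagree. The SD of that disagreement was 0.29 over 11653 probe sets of 4410 genes. It was 0.14 over the 114 probe sets of the 44 respiratory chain genes that have several above the floor. Below, the probe set SD or the SD is the 0.29 unless another is given, so subunits within it can lie beyond the 0.14. The floor, an intensity of 67.6, is the median of all normalized values. Genes above it on 1 array or both are called measured, which is not a detection call. Variation between mice or between cultures was not measured and is not part of it.

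The array facts that touch these results are few. Before normalization the median intensity was 58.4 for wild type and 78.3 for knockout. Controls for 18S ribosomal RNA, which reflect how the RNA was prepared, ranged from 95.1 to 126.1 on the wild-type and from 389.2 to 581.9 on the knockout array. Mir155hg, from which the deleted microRNA is cut, was at 1136 on the wild-type and 159 on the knockout array, lower in the library labelled knockout. That probe set may or may not fall inside the deletion, so this is no check of the labels by itself. Of the 8 dendritic cell markers examined all were measured, with summed signals of 30146 in wild type and 27258 in knockout. In knockout 6 of the 8 were lower, the most Ccr7 (-0.55) and Cd86 (-0.51), and the class II chaperone gene Cd74 the least (11584 and 11156). The 2 higher were Itgax (4291 and 5331) and Flt3, which passed the floor in knockout alone. The 4 macrophage markers on the array were also above the floor on both, with summed signals of 21500 and 24957. All 4 were higher in knockout, Mertk the most (318 and 558, 0.81). Granulocyte markers summed to 5088 and 6523 over 4 genes, of which 3 were lower and S100a8 was higher. Mast cell and basophil markers summed to 465 and 265 over 3 genes, and B and plasma cell markers to 1171 and 235 over 2. Cpa3 and Mcpt8 were at or below the floor in knockout, so the 265 is an upper bound, and Kit had 134 and 130. Of 8 Ighm probe sets 3 were higher, and the B cell gene Cd79a was not above the floor on either array. None of 3 T and NK cell markers and neither of the 2 erythroid markers on the array was above the floor. These cell type levels differed between the arrays, and their part in the results below was not tested. In bulk RNA, fewer cells of a type and less RNA per cell cannot be told apart.

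The respiratory chain transcripts lay on both sides of 0, and most of them close to it. In knockout cells 39 of 76 measured genes were higher and the other 37 lower, and their median was 0.02. Over all 11878 measured genes 51.5% were higher and 48.5% lower by any amount, with a median of 0.01. In the brightest tertile (the top of 3 equal groups of measured genes by mean signal), which held 73 of the 76 subunits, these shares were 52.1% and 47.8%. None of the 76 reached a 2-fold difference, against 1.19% of all measured genes and 0.379% of those in the brightest tertile. A 1.5-fold difference was reached by 1 gene, Atp5mpl, which was higher, against 4.57% of all measured genes and 1.97% of the brightest tertile that were 1.5-fold higher. The share 1.5-fold lower was 4.1% over all genes and 1.67% in that tertile, and no subunit was among them. In either direction the shares at 1.5-fold were 8.67% and 3.64%. Of the subunits, 69 differed by no more than the probe set SD, 90.8%, against 67.3% of all measured genes and 79.0% of the brightest tertile. Those beyond it were Atp5mpl, Uqcrc1, Ndufb5 and Cox5a on the higher side, 4 genes against 17.0% of all measured genes and 11.4% of the tertile, and Cox8c, Cox8a and Cox6a2 on the lower side, 3 genes against 15.7% and 9.67%. The SD over the 76 genes was 0.20, against 0.34 for all measured genes and 0.26 for the brightest tertile. Their quartiles were -0.07 and 0.18, the upper one beyond the probe set SD of 0.14 of the respiratory chain genes. As the subunits belong to shared complexes and to the same arrays, these shares are descriptions and were not tested.

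**Figure D1:**
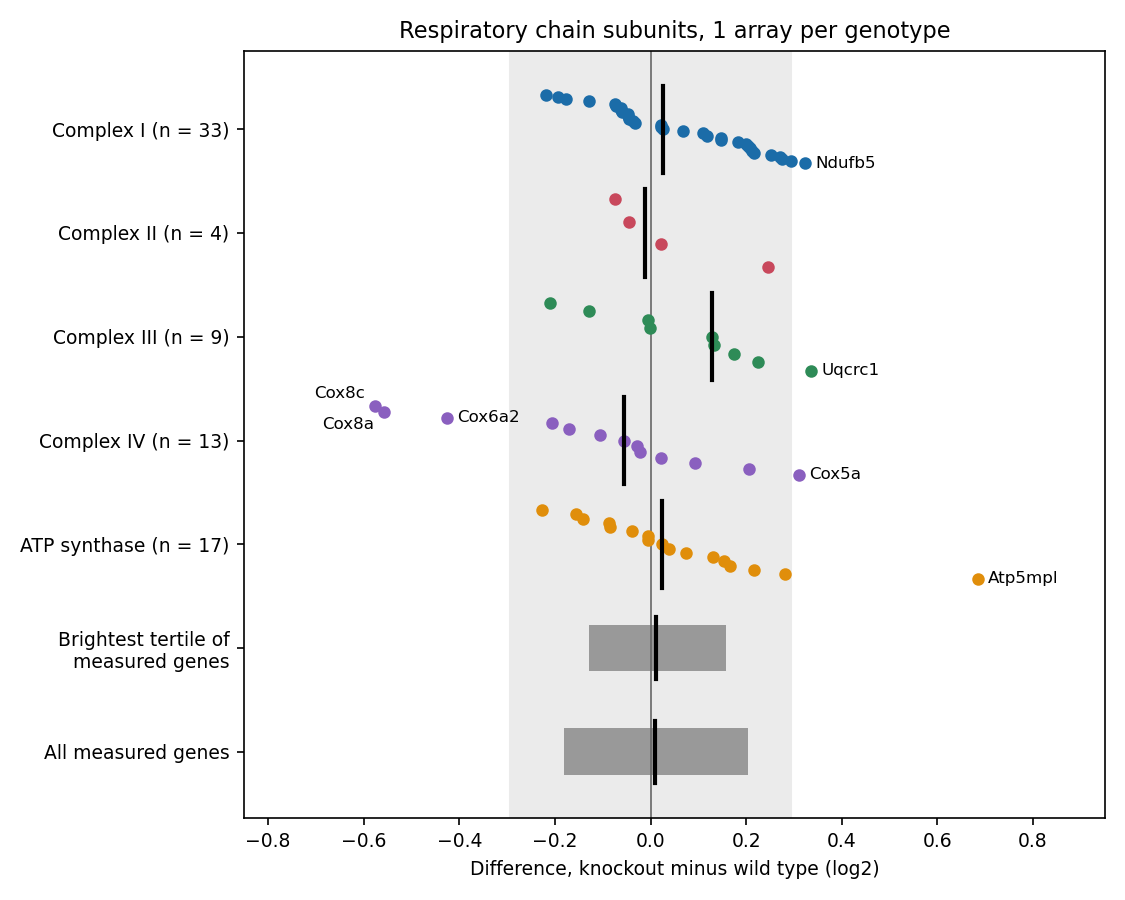
Difference between knockout and wild type (log2) for each of the 76 measured subunit genes, by complex, with the median of each complex as a black line and the probe set SD of 0.29 as a grey band. Grey bars span the quartiles of the brightest tertile and of all measured genes. Most points lie inside the band, with Atp5mpl to the right and Cox8c, Cox8a and Cox6a2 to the left.

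The 83 genes did not all give a value. For 7 of them no probe set was above the floor on either array: Ndufb4, an accessory subunit of complex I, and Cox4i2, Cox6b2, Cox7a1, Cox7b2, Cox8b and Ndufa4l2, which are isoforms known from lung, testis, muscle or hypoxic cells. Another, Cox7c, passed the floor on the wild-type array alone, which left lower as its only possible direction. A further 10 probe sets name a subunit together with other genes, such as copies of Ndufb4, and fell outside the rule, so Ndufa11 and Ndufs6 are not analysed here. Of the 170 probe sets, 149 were above the floor on at least 1 array.

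**Figure D2:**
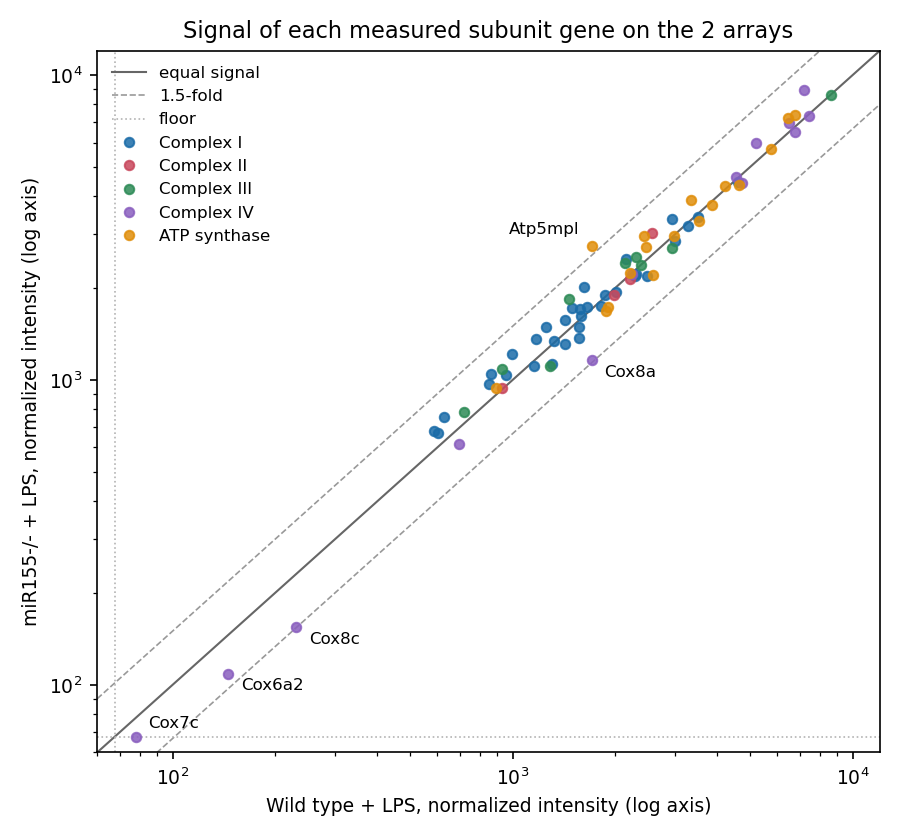
Normalized intensity of each measured subunit gene on the wild-type array (x, log axis) and the knockout array (y, log axis), coloured by complex. The solid line is equal signal, the dashed lines a 1.5-fold difference and the dotted lines the floor of 67.6. Atp5mpl lies above the upper dashed line, Cox8a and Cox8c lie close to the lower one, and most other genes follow the solid line.

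Complex I, the NADH dehydrogenase, had 33 measured genes, of which 19 were higher. Their median was 0.03 and their range -0.22 to 0.32. Its core subunits carry the flavin and the iron-sulphur clusters. Ndufv1, which binds NADH and the flavin, had signals of 995 (wild type) and 1220 (knockout), a difference of 0.29. Its 3 probe sets spread from -0.03 to 0.34. Ndufv2, its partner in the NADH-binding module, had signals of 2013 and 1948 (-0.05). Ndufs1, the large iron-sulphur subunit of that module, had signals of 605 and 670 (0.15). The NADH-binding module held values on both sides of 0, none beyond the SD of 0.29. Ndufv1 lay almost at that SD and beyond the 0.27 of the brightest tertile.

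The subunits that lead on to coenzyme Q were also split. Ndufs7, which carries the last iron-sulphur cluster of the path, had signals of 1173 and 1358 (0.21), and 2 of 2 probe sets were higher. Ndufs8, an iron-sulphur subunit next to it in the chain, had signals of 1309 and 1124 (-0.22), the lowest value in complex I. Each of its 6 probe sets was lower, from -0.37 to -0.12. Ndufs3, a core subunit without a cluster, had signals of 1570 and 1374 (-0.19). Ndufs8 was lower and Ndufs7 higher on all of their probe sets, and both representative values lay within the SD of 0.29.

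The 27 measured accessory subunits of complex I, which surround and stabilise the core, had a median of 0.03, with 16 higher and 11 lower. The highest was Ndufb5, a subunit of the membrane arm, with signals of 1616 and 2021 (0.32), but its other probe set had a difference of 0.00. Ndufa5, in the arm that faces the matrix, had signals of 863 and 1044 (0.27), and its other probe set was again at 0.00. Ndufb1, in the membrane arm, had 627 and 756 (0.27, 1 probe set). For these genes the size of the difference depended on the probe set or rested on 1 of them.

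Ndufab1, an acyl carrier protein that also serves mitochondrial fatty acid synthesis, had signals of 1253 and 1493 (0.25), and a second probe set was higher too (0.36), while another passed the floor in knockout cells alone and could only be higher. Ndufb6 (2147 and 2481, 0.21) and Ndufb11 (1578 and 1701, 0.11), both of the membrane arm, had all probe sets higher, 2 and 3 of them. Ndufa9, a subunit near the coenzyme Q site, had 1495 and 1722 (0.20). At the other end, Ndufa7, in the matrix arm, had 2482 and 2197 (-0.18), with 4 of 5 probe sets lower. Ndufv3, a small subunit by the NADH-binding module, had 1427 and 1306 (-0.13). Ndufs4, known from mouse knockouts as needed for a stable complex I, had 1155 and 1107 (-0.06), with 3 of 3 probe sets lower. All 33 genes were above the floor on both arrays, and only Ndufb5 passed the SD of 0.29.

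Between these ends the other accessory subunits lay within 0.22 of 0. Ndufb2 had signals of 586 and 680, Ndufc2 of 2942 and 3377, Ndufb10 of 854 and 970 and Ndufb3 of 1423 and 1577, each higher in knockout. For Ndufb2 and Ndufc2 1 of 3 probe sets was lower, at -0.13 and -0.16. Ndufa6 had 955 and 1036 and Ndufa8 1653 and 1734. Ndufa10 (1587 and 1616), Ndufs5 (1321 and 1342) and Ndufa12 (1871 and 1900) differed by less than 0.03. Lower by 0.08 or less were Ndufa13 (3274 and 3201), Ndufa3 (3505 and 3419), Ndufb8 (2300 and 2229), Ndufa1 (4590 and 4444), Ndufc1 (1817 and 1743), Ndufb9 (2282 and 2187), Ndufb7 (1565 and 1490) and Ndufa2 (3004 and 2852).

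Complex II, succinate dehydrogenase, is also an enzyme of the citric acid cycle and has 4 subunits, all measured. Their median difference was -0.01. Sdha, the flavoprotein that oxidises succinate, had signals of 2212 (wild type) and 2145 (knockout), a difference of -0.04, and its 3 probe sets lay between -0.05 and -0.04. Sdhb, the iron-sulphur subunit, had 2563 and 3040 (0.25) on 1 probe set. The membrane anchors Sdhc (929 and 943, 0.02) and Sdhd (1989 and 1891, -0.07) each had 1 of 2 probe sets higher. The catalytic subunits Sdha and Sdhb lay on opposite sides of 0, and neither passed the SD of 0.29. Sdhb lay beyond the 0.14 of the respiratory chain genes.

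Complex III, the cytochrome bc1 complex, had the highest median of the 5 complexes, 0.13 over 9 genes, with 5 higher and 4 lower. The catalytic subunits encoded in the nucleus were both higher. Cyc1, cytochrome c1, had signals of 2301 and 2522 (0.13), and Uqcrfs1, the Rieske iron-sulphur protein, 2137 and 2413 (0.18). Of the large core proteins, which resemble mitochondrial processing peptidases, Uqcrc1 had 1460 and 1842, 1.26-fold higher (0.34), the highest in the complex, and Uqcrc2 had 2382 and 2381 (0.00). Cyc1, Uqcrfs1 and Uqcrc1 rested on 1 probe set each, and only Uqcrc1 passed the SD of 0.29.

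The small subunits of complex III spread around 0. Uqcrq had signals of 930 and 1087 (0.22), but 1 of its 3 probe sets had a difference of -0.19. Uqcr11 had 719 and 785 (0.13) and Uqcrb 8643 and 8611 (-0.01). Uqcrh, the acidic hinge protein that lies by cytochrome c1, had 2949 and 2697 (-0.13), and its other probe set was lower still, at -0.39. Uqcr10 had 1287 and 1112 (-0.21), with 2 of 3 probe sets lower. Using probe sets of the plain type in place of those marked as possibly shared between transcripts reduced the median of complex III to 0.02.

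Complex IV, cytochrome c oxidase, had the lowest median, -0.05 over 13 genes, with 4 higher and 9 lower, and its values were the most spread of the 5 complexes (SD over genes 0.27). Cox8a, the common isoform of a small subunit of the complex, had signals of 1710 (wild type) and 1162 (knockout), 1.47-fold lower (-0.56). A second probe set of similar signal also gave a lower value (-0.38), while another, above the floor only in knockout cells, gave 0.16. In the deposited, unscaled values Cox8a had nearly the same signal on both arrays, 1394 and 1432 (0.04), while the median measured gene was 0.54 higher in knockout. Its lower normalized value is relative to the bulk of genes. The mean of its 3 probe sets was -0.26 with each set to the floor first.

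The isoforms of other tissues stood apart within complex IV. Cox8c, known from testis, had 231 and 155 (-0.58), with 2 of 2 probe sets lower. Cox6a2, known from heart and skeletal muscle, had 146 and 109 (-0.43). The deposited signals were 190 and 186 for Cox8c and 122 and 129 for Cox6a2. Both lay below the brightest tertile, and without a detection call these values do not show that either gene was expressed. Without these isoforms and Cox7a2l, which helps join complexes III and IV and is not a core member of the enzyme, the median of complex IV was -0.04 over 10 genes.

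The larger nuclear-encoded subunits of complex IV lay on both sides of 0. Cox5a, on the matrix side, had signals of 7205 and 8930, 1.24-fold higher (0.31), with 3 of 3 probe sets higher. Cox4i1, the common isoform of the largest nuclear-encoded subunit, had 5176 and 5975 (0.21). Cox5b, a zinc-binding subunit, had 4738 and 4407 (-0.10), with 4 of 5 probe sets lower. Cox5a was the only subunit of complex IV higher by more than the SD, while the lung isoform Cox4i2, the partner of Cox4i1, was below the floor on both arrays.

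Among the other common subunits of complex IV, Cox6b1 (6505 and 6936, 0.09) and Cox6c (4542 and 4615, 0.02) were on the higher side. The other probe set of Cox6b1 was lower (-0.11). Cox6a1 (7451 and 7309, -0.03), Cox7a2 (6755 and 6503, -0.05) and Ndufa4 (693 and 615, -0.17) were on the lower side. Ndufa4 was named as a complex I subunit and is now counted with complex IV. Cox7a2l had 2249 and 2216 (-0.02). Cox7c, represented here by a dim probe set at 78.0 in wild type and at or below the floor in knockout, was at least 1.15-fold lower. Cox7b is not analysed here.

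ATP synthase had 17 measured genes, 9 higher and 8 lower, with a median of 0.02. The 5 genes of the catalytic F1 head lay between -0.14 and 0.13. Atp5a1, the alpha subunit, had signals of 3856 and 3752 (-0.04), and a second bright probe set gave 0.03, while another, dim one (101 and 161) gave 0.67. Atp5b, the beta subunit that carries the catalytic sites, had 6756 and 7402 (0.13). The gamma subunit Atp5c1 of the rotating stalk had 4612 and 4350 (-0.08) with 2 of 2 probe sets lower, the delta subunit Atp5d 2977 and 2964 (-0.01) and the epsilon subunit Atp5e 1912 and 1732 (-0.14). No F1 gene passed the SD.

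The c-ring turns as protons cross the membrane, and 3 genes encode its subunit. Atp5g1 had signals of 892 and 939 (0.07), Atp5g2 of 1875 and 1682 (-0.16, 2 of 2 probe sets lower) and Atp5g3 of 5749 and 5730 (0.00). Of the peripheral stalk, which holds the head in place, subunit b, Atp5pb (6448 and 7240, 0.17), the oligomycin sensitivity protein, Atp5o (2460 and 2737, 0.15), and subunit d, Atp5h (4196 and 4313, 0.04), were higher and Atp5j, the coupling factor 6 gene, was lower (2590 and 2212, -0.23). Both Atp5pb and Atp5o had 2 of 2 probe sets higher. Atp5j had the lowest value of the ATP synthase genes.

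The small membrane subunits held the highest value of all 76 genes. Atp5mpl, which encodes a small proteolipid of ATP synthase, had signals of 1709 (wild type) and 2747 (knockout), 1.61-fold higher (0.68). It has 1 probe set, so no second measurement was at hand. It stayed between 0.68 and 1.26 under every alternative of scaling, floor and probe set tried. Atp5k, subunit e, had 2438 and 2962 (0.28), but its 3 probe sets ran from -0.17 to 0.28. Atp5l, subunit g, had 3335 and 3878 (0.22). Atp5md had 2205 and 2242 (0.02) and Atp5j2, subunit f, 3530 and 3324 (-0.09), with a further, dim probe set at 0.36. Of these 5 genes 4 were higher, and only Atp5mpl passed the SD.

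**Figure D3:**
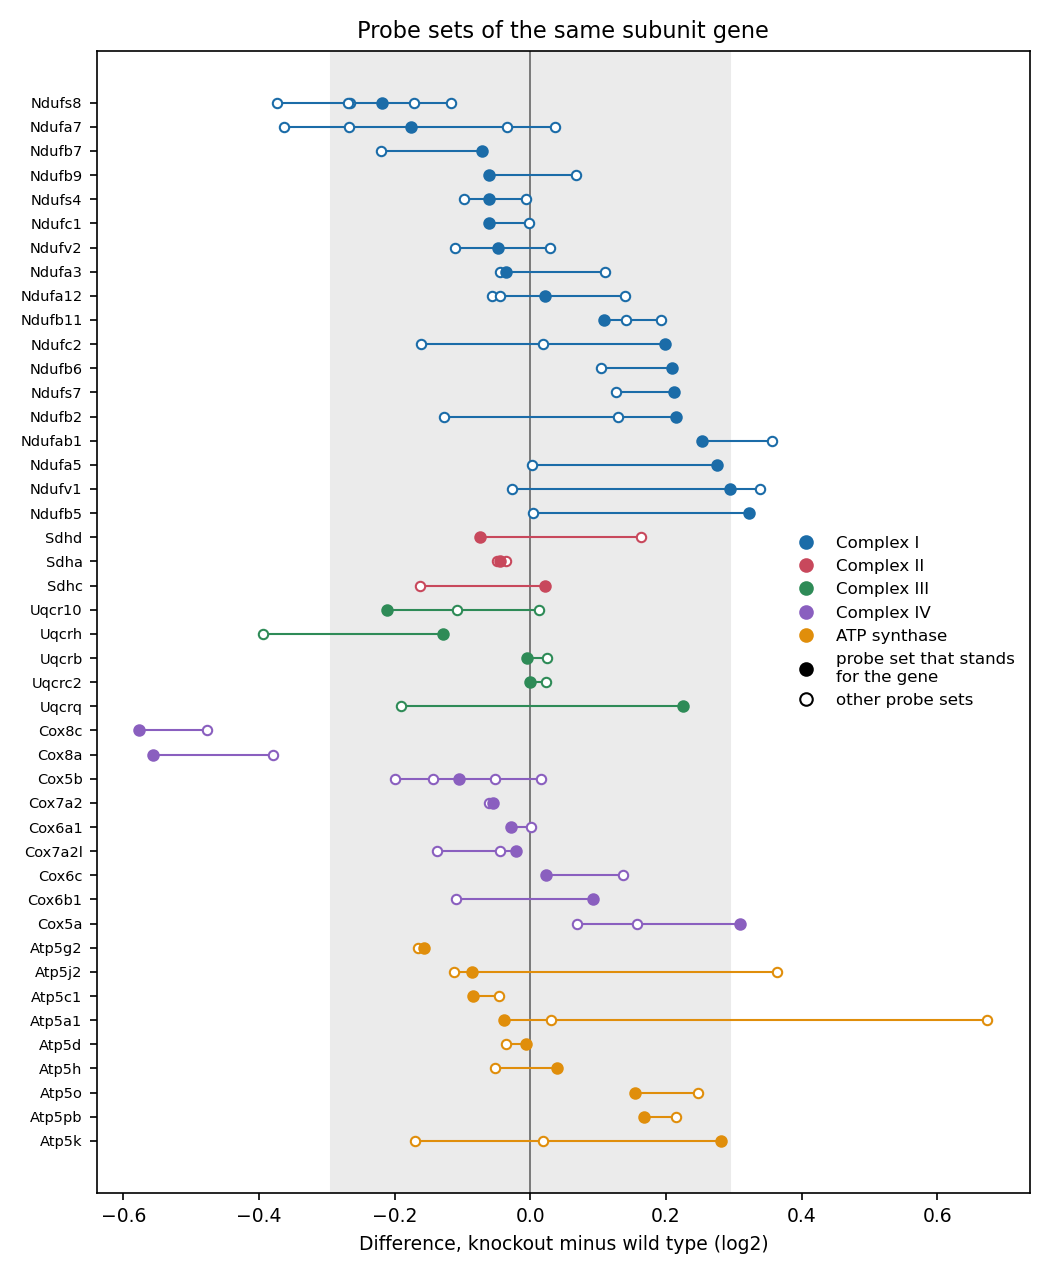
Difference between knockout and wild type (log2) of every probe set above the floor on both arrays, for respiratory chain genes with at least 2 of them. Filled points are the probe sets that stand for the gene, open points the others, colours the complexes, and the grey band the SD of 0.29 over all genes. Ndufs8, Cox8a and Cox8c keep 1 side of 0, whereas Uqcrq, Atp5k and Ndufb2 cross it.

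Probe sets of the same subunit mostly lay close together. Of 44 genes with 2 or more probe sets above the floor on both arrays, 23 had all of them on 1 side of 0. Counting also probe sets above it on 1 array, differences of over 0.58 occurred in 2 genes, Cox8a and Atp5a1, and in both the deviating probe set was dim. A gene with a value near 0 can have probe sets on both sides of it within the SD, so this count does not rank the genes.

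The medians of the 5 complexes ran from -0.05 in complex IV to 0.13 in complex III, and no test of this difference was possible. Complex III had the highest median in 9 of 11 processing settings and complex IV the lowest in 11 of 11. The exceptions for complex III were both ways of averaging probe sets, where complex II or ATP synthase was highest. All settings read the same 2 arrays again, and several shift every gene alike or leave bright genes unchanged. The counts are therefore not independent and lend the order no support beyond the 2 arrays. The level of these medians depended on the scaling. As deposited, with no scaling, the medians of complexes I to IV and ATP synthase were 0.63, 0.60, 0.73, 0.42 and 0.56, against 0.60 for the brightest tertile. With scaling on the hybridisation controls, which the standard procedure adds to each sample in set amounts, they were 0.30, 0.27, 0.40, 0.10 and 0.24, against 0.27. A direction for the chain as a whole can thus be given only relative to other genes: the median of the subunits minus that of the brightest tertile lay between -0.03 and 0.05 under every setting tried, and which scaling gives the true level cannot be told from 2 arrays.

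**Figure D4:**
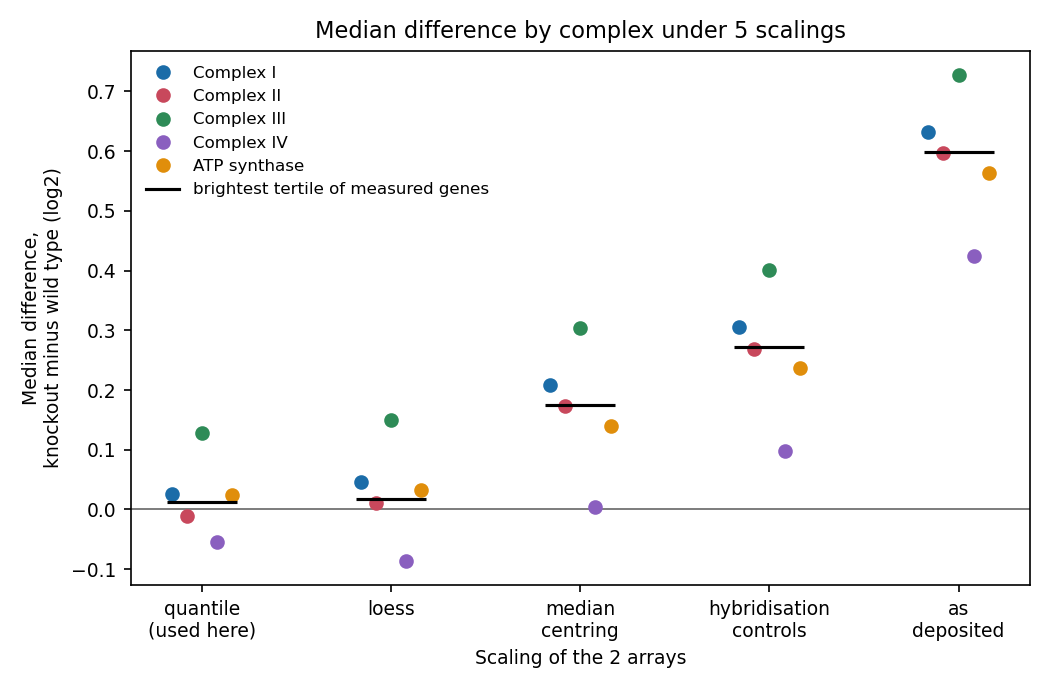
Median difference between knockout and wild type (log2) of each complex under 5 ways of scaling the arrays, with black lines for the median of the brightest tertile of measured genes. The whole set moves up together from quantile normalization to the deposited values, and complex III stays above and complex IV below the line.

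The subunit genes lie on 19 chromosomes, so only a few share a neighbourhood. Of the genes on chromosome 16 above the floor, Atp5j comes 3 genes after Mir155hg in chromosomal order, behind Mrpl39 (1248 and 302) and the adhesion molecule gene Jam2 (138 in wild type and at or below the floor in knockout). Mrpl39 encodes a mitochondrial ribosomal protein. On their representative probe sets Mrpl39 was 4.13-fold lower (-2.05), Jam2 at least 2.05-fold lower (-1.03) and Atp5j 1.17-fold lower. The other probe set of Mrpl39 gave a smaller drop (-1.18), as did that of Jam2 (-0.54). On the other side of Mir155hg the nearest measured genes lay both ways, with D16Ertd472e at 0.32, Usp25 at 0.97, Nrip1 at -0.78 and Samsn1 at -0.87. Gabpa, the gene after Atp5j, had signals of 444 and 457 (0.04), and its other probe set gave -0.40. It encodes the DNA-binding subunit of the ETS factor GABP, also called NRF-2, which is known to act on many respiratory chain genes. Atp5o, 38 measured genes from Mir155hg on the same chromosome, was higher (0.15).

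Respiratory chain genes are known targets of the factors NRF1, GABP and YY1, and the letters of their short core motifs were searched on both strands of RefSeq promoter windows (GRCm38.p6), from 250 bases before to 50 after the gene start. Windows were given for 67 of the 83 genes. The NRF1 core GCGCATGCG was in those of 7 genes (10.45%), against 4.04% of 9582 measured genes with windows and 1.95% of all 27025 genes. The ETS core CCGGAAG was in those of 17 genes (25.4%), against 19.6% and 9.93%. The YY1 core AAGATGGC was in those of 9 genes (13.4%), against 5.17% and 3.19%. In no respiratory chain window did different motifs share letters. The 7 measured genes with the NRF1 letters had a median difference of 0.13, with 5 higher, and the 55 without them one of 0.00. For the ETS letters the medians were -0.03 (17 genes) and 0.02 (45 genes), and for the YY1 letters -0.05 (9 genes) and 0.02 (53 genes). These are descriptions of short letter matches, and no factor binding was measured.

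The windows below show the highest gene of complex III, the lowest common subunit of complex IV and the ATP synthase gene nearest to the deleted microRNA, with capitals marking the letters matched. In the Uqcrc1 window, chr9:108936398-108936697 on the plus strand, the NRF1 letters occur on both strands of 1 run of 10 bases. The Cox8a window, chr19:7217567-7217866 on the minus strand, holds the ETS letters at 2 places. Of the 2 Atp5j windows, the one shown, chr16:84834927-84835226 on the minus strand, holds 1 YY1 and 1 ETS match and shares 247 bases with the window of Gabpa, which is read the other way.
Uqcrc1: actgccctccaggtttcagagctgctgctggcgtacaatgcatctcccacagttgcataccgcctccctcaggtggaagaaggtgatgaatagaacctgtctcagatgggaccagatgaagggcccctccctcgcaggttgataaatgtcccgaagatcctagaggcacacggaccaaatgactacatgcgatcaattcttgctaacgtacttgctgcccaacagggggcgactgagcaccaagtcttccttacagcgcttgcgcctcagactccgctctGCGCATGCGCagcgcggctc
Cox8a: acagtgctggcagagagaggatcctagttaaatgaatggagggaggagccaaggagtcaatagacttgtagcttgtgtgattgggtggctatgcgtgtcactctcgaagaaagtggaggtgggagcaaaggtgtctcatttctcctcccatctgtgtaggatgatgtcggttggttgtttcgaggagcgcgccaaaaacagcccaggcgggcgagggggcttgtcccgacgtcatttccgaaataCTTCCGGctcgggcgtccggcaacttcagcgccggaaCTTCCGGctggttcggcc
Atp5j: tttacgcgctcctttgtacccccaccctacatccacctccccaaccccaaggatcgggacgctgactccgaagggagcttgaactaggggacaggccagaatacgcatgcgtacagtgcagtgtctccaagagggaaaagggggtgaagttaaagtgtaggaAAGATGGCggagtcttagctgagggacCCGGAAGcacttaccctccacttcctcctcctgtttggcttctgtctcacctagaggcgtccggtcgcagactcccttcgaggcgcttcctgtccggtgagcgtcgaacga

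The transcripts of these factors were measured too. Nrf1 had signals of 272 and 222 (-0.30), with 1 of 3 probe sets higher. Gabpb1, the partner of Gabpa, had 189 and 159 (-0.25), but its other probe set was higher (0.22). Yy1 had 2103 and 2169 (0.04) with 2 of 4 probe sets higher. None of them passed 1.5-fold. Of the 19 biogenesis and mitochondrial DNA expression genes, all measured, 13 were higher and the median was 0.05. The coactivator gene Ppargc1b had 225 and 352 (0.64), Polrmt, the mitochondrial RNA polymerase gene, 252 and 380 (0.59) with its other probe set at 0.02, and Ppargc1a, which counts among the 13, passed the floor in knockout cells alone (99.8) and could only be higher. Tfam, which packages mitochondrial DNA, had 424 and 382 (-0.15), but its other probe set was higher (0.13). In this list 2 genes passed 1.5-fold, both higher, against 4.57% of all measured genes.

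**Figure D5:**
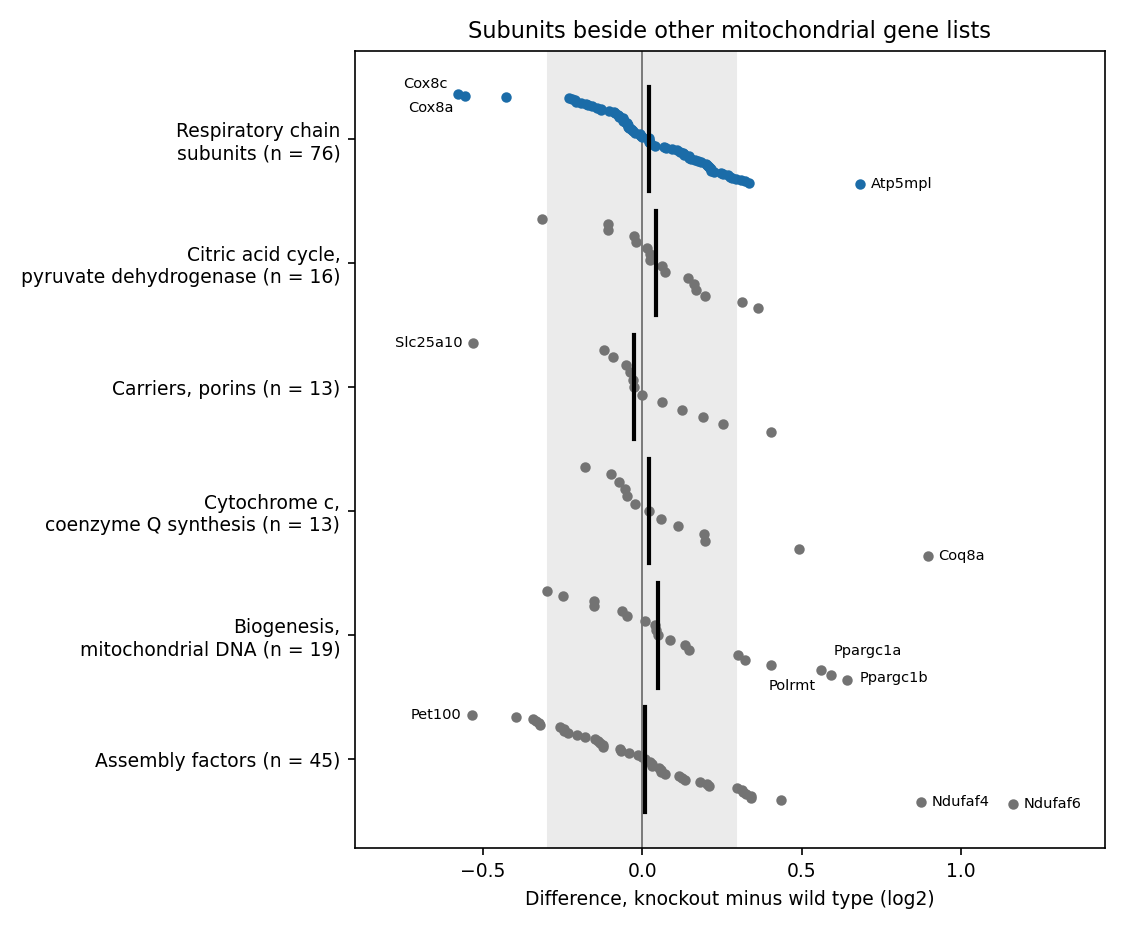
Difference between knockout and wild type (log2) for the 76 measured subunit genes (blue) and for 5 other mitochondrial gene lists (grey), with medians as black lines and the probe set SD of 0.29 as a grey band. All 6 medians lie near 0, and the assembly factors, coenzyme Q genes and biogenesis genes have single genes far to the right.

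Genes that feed or build the chain had medians close to those of the subunits. Of 45 measured assembly factors 24 were higher, with a median of 0.01 and a wider range, from -0.53 to 1.16. Ndufaf4, an assembly factor of complex I, had signals of 256 and 469, 1.83-fold higher (0.87). Its other probe set was also higher (0.51), but by less than 1.5-fold. Ndufaf6, which acts early in building the same complex, had 69.3 and 155, but its wild-type signal lay close to the floor. Pet100, which helps assemble complex IV, had 558 and 385 (-0.53). Of the assembly factors only Ndufaf4 and Ndufaf6 passed 1.5-fold, 2 of 45 and both higher, a share near the 4.57% of all measured genes. No complex I subunit passed it, but all 33 lay in the brightest tertile, where 1.97% were 1.5-fold higher. Only 16 of the 45 assembly factors lay there, so the 2 lists cannot be compared directly.

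Cycs, cytochrome c, which carries electrons from complex III to complex IV, had signals of 7767 and 8914 (0.20), and each of its 3 probe sets was higher. Of the 13 genes of cytochrome c and coenzyme Q synthesis 7 were higher, with a median of 0.02. Coq8a, a coenzyme Q synthesis gene, had 84.5 and 157 (0.90) and Coq9 257 and 362 (0.49), and of these 13 only Coq8a passed 1.5-fold, against 8.67% of all measured genes in either direction. The citric acid cycle and pyruvate dehydrogenase genes had 11 of 16 higher and a median of 0.04, with citrate synthase, Cs, at 2373 and 2414 (0.02, 1 of 3 probe sets higher) and Idh3a, an isocitrate dehydrogenase subunit gene, at 691 and 889 (0.36). Among 13 carriers and porins 5 were higher, with a median of -0.02. The ADP/ATP carrier gene Slc25a5 had 5787 and 5673 (-0.03, 4 of 8 probe sets higher) and the dicarboxylate carrier gene Slc25a10 638 and 441 (-0.53, 2 of 2 probe sets lower). No gene of the last 2 lists, of 16 and 13 genes, passed 1.5-fold, against the same 8.67%.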

How the data were processed

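The authors deposited 1 table with a linear signal intensity per probe set for each of the 2 arrays, made from biotin-labelled cRNA (6 ug of total RNA), per the labels' protocols. The sources used here do not give the algorithm, scaling, detection calls or genome build behind these values. As the array medians differed by 34.1%, more than the 10% limit set, the 45037 probe sets left without 64 controls were quantile normalized on the log2 scale (numpy 2.4.6, pandas 2.3.3, scipy 1.17.1). This removes any difference in total signal. Values under the median of all values (67.6) were set to it. Genes were named from the platform annotation (34945 probe sets with 1 gene, 932 with several, 9160 unnamed here). Each gene was read from its probe set of highest mean signal. All 83 member genes matched the reference gene table. The code was tested on simulated data.

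No test was run, as each genotype has 1 array. The number of arrays limits the precision. The named genes were the catalytic and core subunits, the extremes of each complex, genes at 1.5-fold or more, genes whose probe sets disagree and the tissue isoform pairs. The remaining members were added to account for all. The members and lists were chosen with earlier results of these data known. Alternatives were other scalings, floors, probe set choices and member sets.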

Additional observations from a re-analysis of the deposited data

How the results depend on the processing

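No paired analysis was possible because each genotype has 1 array. With no scaling, the median difference was 0.57 for all subunits, 0.63, 0.60, 0.73 and 0.42 for complexes I to IV and 0.56 for ATP synthase. There 1 subunit was lower, 1 was at least 2-fold and 38 were at least 1.5-fold different (49.4% of the subunits, against 44.0% of all measured genes), and 867 of 12054 measured genes passed 2-fold. The number of subunits lower was 11 with centring on the median and 4 with scaling on hybridisation controls, against 37. With the latter 3 subunits (3.90%, against 14.1% of all) passed 1.5-fold and 214 measured genes passed 2-fold, against 1 and 141. Centring and control scaling add 1 constant to every gene before the floor. With no floor 1 subunit passed 2-fold (Cox6b2, below the floor on both arrays) and 3 passed 1.5-fold (3.61%, against 27.3% of all), since all 83 genes then count, and 2592 genes passed 2-fold. With the floor at the 75th percentile 36 did. With all probe sets averaged before the floor was set, which also lets values under it count, 4 subunits passed 1.5-fold (5.41%, against 8.94% of all): Ndufab1 (0.75), Atp5mpl (0.68), Ndufb8 (0.66) and Atp5g2 (-0.68), and Cox8a was at -0.14. With each probe set floored before averaging, an alternative added after seeing the data, only Atp5mpl passed it (0.68), Ndufab1 was at 0.22, Ndufb8 at -0.02, Atp5g2 at -0.11 and Cox8a at -0.26, and 82 measured genes passed 2-fold. Cox8a was at 0.04 with no scaling. The median of complex IV was 0.00 with centring on the median, and that of complex III 0.02 without probe sets ending in _x_at, _s_at or _a_at. Placing Ndufa4 with complex I, also added after seeing the data, gave 0.02 for complex I and -0.04 for complex IV. Apart from no scaling, 11 of 601 values of single subunits moved by the probe set SD or more. This count does not show that directions held. Control scaling shifted 75 genes by less than that SD, yet Atp5j, for example, went from -0.23 to 0.05. A change of the floor leaves the values of bright genes as they were.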

Other observations

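One subunit encoded by the mitochondrial genome was read, although it lies outside the set described above. Others were not looked up. The probe set annotated as ND5, a complex I subunit of the proton-pumping membrane arm, had normalized signals of 13237 (wild type) and 10332 (knockout), a difference of -0.36. This value lay beyond the probe set SD of 0.29, as did 9.67% of the brightest tertile on the lower side. It was also below all 33 measured nuclear genes of complex I, of which Ndufs8 was the lowest (-0.22). The ND5 value rests on 1 probe set with no replicate, and how it changes with the scaling was not examined. Single probe sets of Ndufs8 (-0.37) and Ndufa7 (-0.36) lay as low, but they do not stand for their genes, which read -0.22 and -0.18.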
